A study of Mus musculus with 15 samples.

Results

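Dendritic cells grown with interleukin-4 (GM4 DC) were compared with dendritic cells grown without it (GM DC) after both had been stimulated for 20 h. The comparison rested on 4 of the study's 15 arrays, 2 of GM4 DC and 2 of GM DC, chosen by the stimulation and time in their titles, and on all 12422 of 12488 probe sets that were not array controls. Bone marrow of female NOD mice, 6 to 8 weeks old, a strain that develops autoimmune diabetes, was kept for 4 days in 1 ng/ml GM-CSF, and GM4 cultures also received 1 ng/ml interleukin-4. Dendritic cells (DC) were then enriched on a density gradient, of 16% metrizamide for GM and 14.5% for GM4 cultures, and both types received 10 µg/ml lipopolysaccharide (LPS) with 50 ng/ml interferon-γ. The study took RNA at 0, 6 and 20 h from both DC types, and its title names GM4 DC as therapeutic and GM DC as non-therapeutic. Replicates are described as biological, no label says how many mice gave each one, and every array shares the strain and culture with GM-CSF. For GM4 0 h replicate 1, which is not among the 4 arrays, the label names GM-CSF and interleukin-4 with no concentration and no gradient. The gradient differed along with interleukin-4, so these cannot be told apart. The question was which transcripts still separated the DC types late after the same stimulus.

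Interleukin-4 signals through STAT6, a transcription factor that induces Chil3 and the chemokines Ccl17 and Ccl22 in myeloid cells. LPS acts through Toll-like receptor 4 and NF-κB, and interferon-γ induces chemokines, GTPases and genes of antigen presentation. Mature DC carry costimulatory molecules and the homing receptor Ccr7, and they secrete chemokines that recruit monocytes, neutrophils or T cells.

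Signals of the 4 arrays had been scaled to the same trimmed mean, and their medians lay between 40.3 and 46.2. Replicates correlated at 0.98 in GM DC and 0.984 in GM4 DC across probe sets, and arrays of different DC type at 0.957 to 0.97. On each array 31.1% to 34.8% of the probe sets read less than 16, the constant added before taking log2. The control ratio of 3′ to 5′ signal, which rises with RNA degradation, followed the DC type. For Gapdh it was 1.51 and 1.55 in GM DC against 1.06 and 1.16 in GM4 DC, and for β-actin 2.15 and 2.26 against 1.3 and 1.35. Its part in the results was not tested beyond a fit with this ratio as a covariate, called the RNA ratio below, which is named where it ended the call of a named gene.

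Transcripts of DC markers were read in both types, which alone does not settle the identity of the cells. Monocyte and macrophage markers were read as well, as given below. H2-Aa, an MHC class II chain, had signals of 3615 and 2483 in GM DC and 2956 and 2526 in GM4 DC. The DC integrin Itgax was measured at 184 and 219 in GM DC and 208 and 216 in GM4 DC. The types overlapped for both markers, and neither passed, at -0.13 ± 0.26 for H2-Aa (adjusted p = 0.877) and 0.07 ± 0.21 for Itgax (adjusted p = 0.923). Of 15 measured DC lineage genes 4 were higher in GM4 DC and none was lower, against 3.54% and 1.87% of all genes, and the median log2 difference was 0.38. The 4 were the transcription factors Irf4 and Batf3, the maturation marker Cd83 and Ccr7, of which only Batf3 kept its call in all 26 alternative analyses, with values for the others given below. In whole-culture RNA, fewer cells of a type and less RNA per cell cannot be told apart.

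At 20 h, 584 probe sets (4.70%) differed between the DC types at an adjusted p under 0.05, taken from limma's moderated test with Benjamini-Hochberg adjustment and referred to below as called. Of these, 390 (3.14%) were higher and 194 (1.56%) were lower in GM4 DC. By gene, with the brightest probe set standing for each of 8251 genes, 292 (3.54%) were higher and 154 (1.87%) lower, the shares against which each count of list members is set. At shares this low, a short list without a called member says little about its members. Differences are log2(signal + 16) of GM4 minus GM, a scale that understates changes of dim genes, and ± is limma's standard error over 2 arrays a group with the spread pooled over all 15 arrays. The median difference of all genes was -0.04, and 44.9% of genes lay above 0. Among called genes the median size was 0.98. An increase of at least 1 was seen for 161 called genes and one of at least 2 for 19, whereas 60 called genes were lower by at least 1 and 2 by at least 2. The GM4 and GM arrays did not overlap for any of the 446 called genes, nor for 48.1% of all probe sets. Leaving out a 20 h array leaves 1 array in a group and lowers the precision, and the part of the array itself was not tested. The count of 584 fell in each such fit. It was 146 without GM4 replicate 1, 189 without GM replicate 2 and 269 without GM4 replicate 2, and 335 with the RNA ratio as a covariate, 203 of them shared with the 584.

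The largest increase was that of Chil3, a secreted chitinase-like protein that interleukin-4 induces in myeloid cells. Its signals were 332 and 325 in GM DC and 5919.6 and 6149 in GM4 DC. The replicates of each type lay close together, the types did not overlap, and the difference was 4.13 ± 0.19 (adjusted p = 6.83e-08). The feedback inhibitor Socs2, which binds activated cytokine receptors, stood at 203 and 175 in GM DC and 1072 and 959 in GM4 DC. Ccl17, a chemokine that attracts T cells bearing Ccr4, was measured at 346 and 263 in GM DC and 1356 and 1327 in GM4 DC. Both were several times brighter on either GM4 array than on either GM array, with differences of 2.33 ± 0.21 (adjusted p = 9.85e-05) and 2.09 ± 0.26 (adjusted p = 0.000493). Other called members of the interleukin-4 and STAT6 list were Irf4 (1.61 ± 0.31), Batf3 (1.39 ± 0.22) and Ccl22 (1.22 ± 0.32), the other ligand of Ccr4. The matrix protein fibronectin, Fn1 (-1.09 ± 0.22), and the transcription factor Klf4 (-0.89 ± 0.22) were lower. In all, 6 of 25 measured members were higher and 2 lower, against 3.54% and 1.87% of all genes, with a median of -0.11. Tgm2 (-0.69), the mannose receptor Mrc1 (-0.50), the receptor chain Il4ra (-0.49) and Stat6 itself (-0.10) did not pass. Chil3, Socs2, Ccl17 and Batf3 kept their calls in all 26 alternative analyses, while Irf4 lost its call without GM replicate 2, without GM4 replicate 1 or with the RNA ratio, and Ccl22, Fn1 and Klf4 lost theirs whichever single 20 h array was left out, Fn1 also with the RNA ratio. Ccl22 lost its call in 13 of 26 alternatives, among them median centring and the fit without the intensity trend. Over the alternatives the difference ran from 1.17 to 2.02 for Irf4, 1.16 to 2.20 for Ccl22, -1.33 to -0.81 for Fn1 and -1.44 to -0.47 for Klf4.

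Promoter sequence is shown for Chil3, the largest increase, and for 3 other genes whose windows held the STAT6 motif. Vdr and Adam19 came from the 15 largest increases. Ccl17 came from the called higher members of the interleukin-4 and STAT6 list, which were searched as well. Windows run from 250 bases before to 50 bases after the annotated start, 5′ to 3′ on the gene's strand, from RefSeq on build GRCm38.p6. The motif is in capitals. The STAT6 motif was TTC and GAA separated by any 4 bases, and the interferon-γ activated site the same letters separated by any 3, each a palindrome and so the same on both strands, and a stretch could hold overlapping matches of both. In the Chil3 window, chr3:106167515-106167814 (minus strand), an activated-site match starts 172 bases before the start, and no STAT6 match was found.
Chil3: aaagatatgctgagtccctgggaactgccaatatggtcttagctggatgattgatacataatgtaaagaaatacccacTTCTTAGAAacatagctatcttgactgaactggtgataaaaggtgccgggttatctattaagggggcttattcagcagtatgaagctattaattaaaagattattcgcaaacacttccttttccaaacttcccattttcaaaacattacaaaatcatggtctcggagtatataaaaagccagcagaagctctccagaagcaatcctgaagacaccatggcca
Vdr, the vitamin D receptor gene, holds a STAT6 match 220 bases before its start in the window chr15:97908247-97908546 (minus strand).
Vdr: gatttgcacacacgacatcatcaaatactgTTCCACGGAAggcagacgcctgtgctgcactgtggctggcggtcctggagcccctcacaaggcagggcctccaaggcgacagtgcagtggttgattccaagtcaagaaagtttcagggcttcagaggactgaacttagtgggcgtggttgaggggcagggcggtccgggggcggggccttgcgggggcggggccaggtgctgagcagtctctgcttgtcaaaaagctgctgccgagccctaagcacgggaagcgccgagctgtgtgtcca
In one of the windows of Adam19, a membrane metalloprotease gene, at chr11:46054252-46054551 (plus strand), the STAT6 match starts 240 bases before the start.
Adam19: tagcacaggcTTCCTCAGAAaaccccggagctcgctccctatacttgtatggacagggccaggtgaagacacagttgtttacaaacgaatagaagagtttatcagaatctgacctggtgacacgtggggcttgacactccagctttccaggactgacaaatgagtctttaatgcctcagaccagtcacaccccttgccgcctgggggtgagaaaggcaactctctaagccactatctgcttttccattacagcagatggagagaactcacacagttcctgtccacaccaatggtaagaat
The Ccl17 window, chr8:94810203-94810502 (plus strand), holds a STAT6 match 154 bases before the start and an activated-site match, left in lower case, 99 bases before it.
Ccl17: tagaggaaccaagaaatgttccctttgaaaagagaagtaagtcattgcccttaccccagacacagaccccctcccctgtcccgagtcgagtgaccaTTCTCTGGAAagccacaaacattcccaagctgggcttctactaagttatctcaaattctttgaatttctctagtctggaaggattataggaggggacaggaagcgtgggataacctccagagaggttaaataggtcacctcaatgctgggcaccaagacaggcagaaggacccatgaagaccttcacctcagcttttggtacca
A STAT6 match was found in the windows of 20 of 242 higher genes with a window (8.26%), 6 of 117 lower genes (5.13%) and 439 of 6572 measured genes (6.68%). For the activated site the shares were 10.3% of higher, 14.5% of lower and 8.51% of measured genes, and for the NF-κB motif, read on both strands, 12.4%, 12.8% and 12.3%. Over all 32851 windows of the table the shares were 6.95%, 8.3% and 8.46%. A match is a string of letters and not a measured site. Of the 15 genes with the largest increases 11 had a window, and 2 of these, Vdr and Adam19, held the STAT6 motif.

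Of the 4 chemokines listed as attracting monocytes, Ccl2, Ccl7, Ccl8 and Ccl12, all were called higher, against 3.54% of all genes, with a median of 2.69. This short list was chosen with earlier results of these data known. Ccl3, Ccl4 and Ccl5, listed among the other chemokines below, did not pass. Ccl7, a ligand of Ccr2, had signals of 58.7 and 58.8 in GM DC and 925 and 856 in GM4 DC. Ccl12, another Ccr2 ligand, was measured at 7.74 and 7.6 in GM DC and 203 and 154 in GM4 DC. Replicates lay close together and far from the other type, and Ccl12 was below 16 on both GM arrays, where low signals are noisy. The differences were 3.60 ± 0.56 for Ccl7 (adjusted p = 0.00211) and 3.03 ± 0.37 for Ccl12 (adjusted p = 0.000493). Ccl8 stood at 9.93 and 13.2 in GM DC and 148 and 104 in GM4 DC. The GM arrays were again below 16, and the difference was 2.35 ± 0.38 (adjusted p = 0.00283), falling to 2.13 without GM4 replicate 1, where it was no longer called (adjusted p = 0.0505). The size of the dim differences depended on the offset and ran over the alternatives from 1.75 to 4.36 for Ccl12 and 1.32 to 3.33 for Ccl8. Ccl2, the prototype of these monocyte attractants, was bright in both types at 1405 and 1386 in GM DC and 4088 and 4173 in GM4 DC. It differed by 1.55 ± 0.34 (adjusted p = 0.018), a call lost when any single 20 h array was left out or the RNA ratio was added, with differences from 1.52 to 1.91 over the alternatives.

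**Figure D1:**
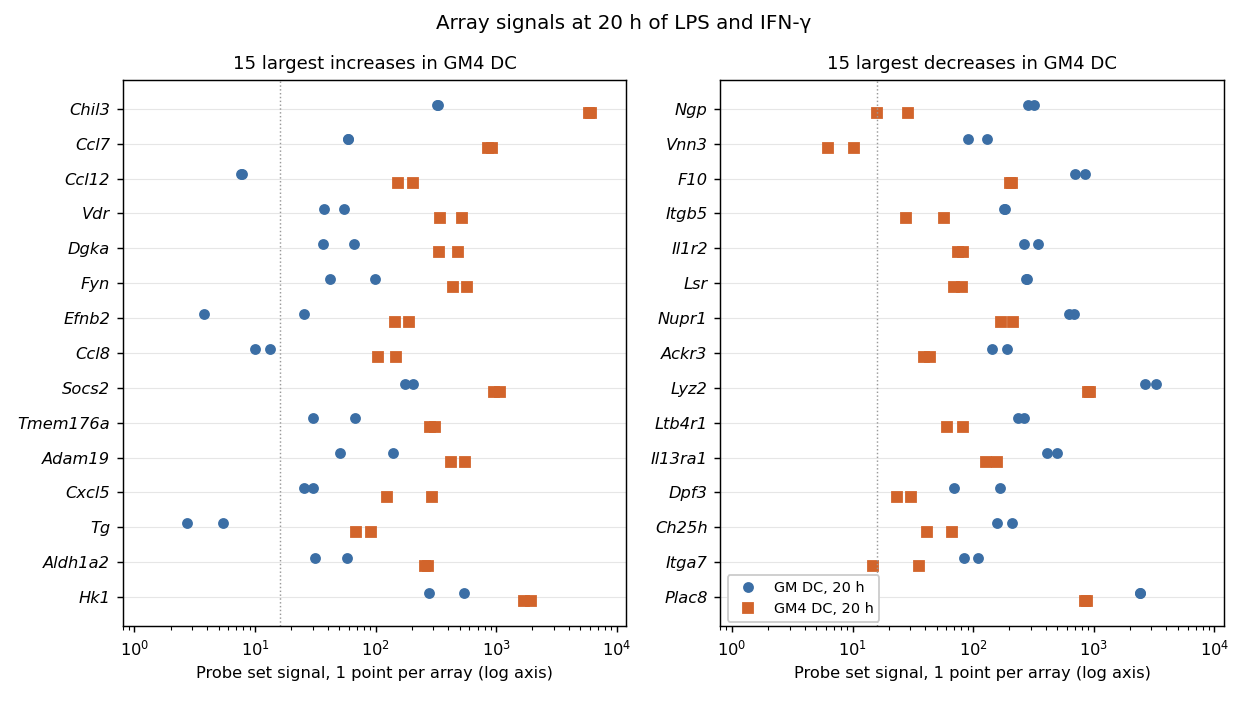
Probe set signal at 20 h (horizontal log axis) of the 15 genes with the largest increases (left) and the 15 with the largest decreases (right), with 1 circle per GM array, 1 square per GM4 array and a dotted line at a signal of 16. Genes were chosen among called genes whose GM4 and GM arrays did not overlap, so the separation shown was set by the choice. Arrays did not overlap for 48.1% of all probe sets either. GM against GM4 signals run from Chil3 (325 and 332 against 5919.6 and 6149) to Ngp (285 and 319 against 28.8 and 15.9).

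Among 21 other measured chemokines 5 were higher and 2 lower, against 3.54% and 1.87% of all genes, with a median of 0.07. Cxcl5, which recruits neutrophils through Cxcr2, was measured at 25.5 and 30.3 in GM DC and 125 and 292 in GM4 DC. The 2 GM4 arrays differed from each other more than the GM arrays did, yet both lay above them (2.25 ± 0.37, adjusted p = 0.00332). Cxcl1, also a ligand of Cxcr2, was higher by 1.02 ± 0.21, and Cx3cl1, the membrane-bound chemokine fractalkine, by 1.40 ± 0.28. Lower in GM4 DC were Cxcl14 (-0.92 ± 0.21) and the interferon-γ-induced T cell attractant Cxcl9 (-0.72 ± 0.16). The related Cxcl10 did not pass (0.07), and Ccl5 (-0.67), Ccl3 (0.32) and Ccl4 (0.58) did not either. Another probe set of Cx3cl1 near or below 16 gave -0.18 and was not called. A second Cxcl1 probe set gave 0.87 and was not called either. Chemokine receptors included 1 higher gene of 18, Ccr7 (1.09 ± 0.28), with signals of 1093 and 610.5 in GM DC and 2019.8 and 1541 in GM4 DC. Lower were Ackr3, a scavenging receptor without G protein signalling (-1.66 ± 0.30), and Ccr2, the receptor of Ccl2, Ccl7 and Ccl12 (-1.30 ± 0.30). Ccr2 was dim in both types, at 27.9 and 34.6 in GM DC and 4.05 and 2.25 in GM4 DC, and neither the calls of Ccr7, Ackr3 and Ccr2 nor those of Cxcl1, Cx3cl1, Cxcl14 and Cxcl9 held in all alternatives. Those of Ccr7, Ackr3, Cxcl14 and Cxcl9 were lost with the RNA ratio, and those of Ccr2 and Cxcl14 whichever 20 h array was left out. Cxcl1 lost its call without GM or GM4 replicate 2, Cx3cl1 without these or GM4 replicate 1, and Cxcl9 without GM replicate 1 or either GM4 array. The ranges were -2.98 to -0.50 for Ccr2, 0.66 to 1.39 for Cxcl1, 0.61 to 2.05 for Cx3cl1, -1.09 to -0.74 for Cxcl14 and -0.92 to -0.51 for Cxcl9. Cxcl5 and Ccl17 kept their calls in all 26.

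Vdr and Aldh1a2 were among the 15 largest increases, and Ptger4 was also higher. Vdr, the receptor of active vitamin D, was measured at 54.8 and 37.5 in GM DC and 516 and 341 in GM4 DC. Aldh1a2, which makes retinoic acid from retinal, stood at 58.3 and 31.1 in GM DC and 274 and 256 in GM4 DC. Ptger4, the receptor through which prostaglandin E2 acts on DC, was at 175 and 146 in GM DC and 804 and 574 in GM4 DC. In each of them the lower GM4 array was more than 3 times the higher GM array. The differences were 2.82 ± 0.36 for Vdr (adjusted p = 0.000602), 2.25 ± 0.27 for Aldh1a2 (adjusted p = 0.000457) and 1.99 ± 0.29 for Ptger4 (adjusted p = 0.00147), all called in the 26 alternatives, with Vdr at 1.78 to 3.18. A second, dimmer Vdr probe set gave 0.74 and was not called. These were the only called genes in their lists, 2 of 24 nuclear receptor and vitamin genes and 1 of 18 prostaglandin and leukotriene genes, whose medians were -0.18 and -0.09. Of all genes 3.54% were higher.

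Higher too were 3 genes of intracellular signalling. Dgka, a kinase that converts diacylglycerol to phosphatidic acid, had signals of 65.9 and 36.8 in GM DC and 482 and 333 in GM4 DC. Fyn, a Src family kinase, was at 99 and 41.6 in GM DC and 573 and 435 in GM4 DC. Stat4, the signal transducer of interleukin-12 and type I interferon, was at 236 and 124 in GM DC and 754 and 589 in GM4 DC. In all of these GM replicate 1 was brighter than GM replicate 2, and both were below the GM4 arrays. The differences were 2.67 ± 0.20 (adjusted p = 1.7e-05), 2.66 ± 0.29 (adjusted p = 0.000309) and 1.86 ± 0.29 (adjusted p = 0.0023), and these were the 3 called among 27 measured kinases and signal transducers, with 15 of 27 below 0, a median of -0.01 and 3.54% of all genes higher. All 3 kept their calls in the 26 alternatives. Efnb2, a membrane ligand of Eph receptors, differed by 2.66 ± 0.41, Tmem176a, a membrane protein found in DC, by 2.32 ± 0.33, and Adam19 by 2.29 ± 0.33. Hk1, the hexokinase that starts glycolysis, stood at 541 and 274 in GM DC and 1959.9 and 1695 in GM4 DC and differed by 2.19 ± 0.32 (adjusted p = 0.00152). Tg, the thyroglobulin gene, was below 16 on both GM arrays and at 90.9 and 68.6 on the GM4 arrays (2.25 ± 0.19). Efnb2, Tmem176a, Adam19, Hk1 and Tg kept the call in every alternative that tested them, but the size ran from 1.07 to 4.03 for Tg and from 1.56 to 3.89 for Efnb2.

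The largest decrease was that of Ngp, a protein of neutrophil granules. Its signals were 285 and 319 in GM DC and 28.8 and 15.9 in GM4 DC, so both GM arrays were more than 9 times either GM4 array, and the difference was -3.07 ± 0.31 (adjusted p = 0.000249). Vnn3, a pantetheinase that recycles vitamin B5, was measured at 131 and 91.3 in GM DC and 10.3 and 6.28 in GM4 DC. Both GM4 arrays were below 16, and the difference was -2.37 ± 0.26 (adjusted p = 0.000357). Il1r2, a decoy receptor that binds interleukin-1 without signalling, stood at 264 and 348 in GM DC and 81.9 and 74.9 in GM4 DC. Il13ra1, a chain of the receptor for interleukin-13 and of the type II receptor for interleukin-4, was at 492 and 411 in GM DC and 158 and 128 in GM4 DC. Lyz2, lysozyme of macrophages and neutrophils, was at 3283 and 2644 in GM DC and 939 and 903 in GM4 DC. In each of them every GM array was more than 2 times every GM4 array. They differed by -1.76 ± 0.27 (adjusted p = 0.00181), -1.56 ± 0.16 (adjusted p = 0.000249) and -1.66 ± 0.21 (adjusted p = 0.000619). All these decreases kept their calls in every alternative that tested them, while the size ran from -3.60 to -1.27 for Vnn3 and -1.82 to -1.09 for Lyz2. A second Il1r2 probe set gave -0.93 and a dimmer Lyz2 probe set -0.51, neither called.

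The other 10 of the 15 largest decreases kept the call in fewer alternatives. Coagulation factor F10 differed by -1.82 ± 0.42, integrin β5, Itgb5, by -1.80 ± 0.34, the lipoprotein receptor and junction protein Lsr by -1.70 ± 0.28, and the stress-induced Nupr1 by -1.70 ± 0.43. The leukotriene B4 receptor Ltb4r1, which guides neutrophils and other leukocytes, differed by -1.60 ± 0.40, the chromatin remodelling subunit Dpf3 by -1.55 ± 0.41, the integrin Itga7 by -1.49 ± 0.35 and Plac8 by -1.47 ± 0.36. Ch25h, which makes 25-hydroxycholesterol, was measured at 208 and 157 in GM DC and 66.5 and 41.5 in GM4 DC (-1.51 ± 0.38). These and Ackr3 lost the call in at least 1 alternative. Itgb5, Nupr1, Ackr3, Dpf3, Ch25h and Itga7 lost it with the RNA ratio as a covariate. F10, Nupr1, Ltb4r1, Ch25h and Plac8 lost it whichever single 20 h array was left out, Itgb5 without GM replicate 2 or GM4 replicate 2, and Itga7 without any of them but GM4 replicate 2. Dpf3 lost it in 12 of 26 alternatives, and Lsr when all its probe sets were averaged (-0.83, the second one being dim). Their differences over the alternatives ran from -3.21 to -1.56 for F10, -2.18 to -1.10 for Itgb5, -1.96 to -1.50 for Nupr1, -2.65 to -1.21 for Ltb4r1, -1.78 to -1.06 for Ch25h, -2.01 to -0.56 for Itga7 and -2.52 to -1.42 for Plac8. A second F10 probe set was called in the same direction (-1.29). A second Itgb5 probe set gave -0.40, and other Itga7 probe sets gave -0.34 and, for a dim one, -0.03, none of them called. Of 8 other probe sets of the 30 genes with the largest changes, 7 had the same sign and 1, that of F10, was also called. Of the 15 largest increases 14 kept the call in all alternatives.

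Costimulatory and maturation genes included 6 higher members of 17, against 3.54% of all genes, and none lower. The median was 0.76, and 16 of 17 lay above 0, against 44.9% of all genes. Tnfsf4, the ligand of the T cell receptor OX40, was measured at 216 and 119.8 in GM DC and 696 and 614 in GM4 DC. Cd48, a ligand of CD2 and CD244, stood at 158 and 129 in GM DC and 565 and 353 in GM4 DC. Cd83 was at 1067 and 578 in GM DC and 2264 and 2102 in GM4 DC and Cd80, which binds CD28 and CTLA-4, at 82.2 and 93.3 in GM DC and 291 and 241 in GM4 DC. All GM4 arrays were above all GM arrays for these genes, and for Tnfsf4 and Cd83 GM replicate 2 was the lowest. The differences were 1.92 ± 0.29 (adjusted p = 0.00181), 1.54 ± 0.19 (adjusted p = 0.000449), 1.45 ± 0.32 (adjusted p = 0.0179) and 1.44 ± 0.32 (adjusted p = 0.0203). Second probe sets of Cd80 (1.15) and Cd83 (1.46) were called in the same direction. Icam1, an adhesion molecule of the immunological synapse, differed by 1.19 ± 0.28. Cd86, the partner of Cd80, was at 987 and 543 in GM DC and 986 and 1133 in GM4 DC, so GM replicate 1 reached the lower GM4 array, and it did not pass (0.52 ± 0.29, adjusted p = 0.414). Its second, dimmer probe set passed at 1.29 (adjusted p = 0.0419), and the Cd86 probe sets thus disagree. Cd40 did not pass either (0.32 ± 0.14, adjusted p = 0.239). Tnfsf4 and Cd48 kept the call in all alternatives. Cd83 and Icam1 lost it without GM replicate 2, GM4 replicate 1 or GM4 replicate 2, Cd80 whichever 20 h array was left out, and Ccr7 in 14 of 26 alternatives. With the RNA ratio Cd80, Icam1 and Ccr7 lost it. The ranges over the alternatives were 1.02 to 2.06 for Cd83, 0.50 to 1.48 for Icam1, 0.76 to 1.59 for Cd80 and 0.68 to 1.51 for Ccr7.

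No member of the list of inflammatory and T cell polarising cytokines passed, where 3.54% of all genes were higher and 1.87% lower. The list had 15 measured members and a median of 0.09. Il6, a cytokine of acute inflammation, had signals of 1662 and 620.4 in GM DC and 2228 and 2121 in GM4 DC. GM replicate 2 was low and GM replicate 1 close to the GM4 arrays, and the difference of 1.08 ± 0.32 had an adjusted p of 0.0751. The interleukin-12 chains Il12b (0.34) and Il12a (-0.16), Tnf (0.56) and Il1b (-0.03) did not pass either. Regulatory and feedback mediators had 2 higher and 3 lower members of 22, against 3.54% and 1.87% of all genes, with a median of -0.43. Besides Socs2, the galectin Lgals1 was higher (1.12 ± 0.14, adjusted p = 0.000602), a call kept in all alternatives. Il10, the main deactivating cytokine of myeloid cells, was measured at 95.8 and 104 in GM DC and 40 and 23.8 in GM4 DC. Both GM arrays were more than 2 times the GM4 arrays, with a difference of -1.29 ± 0.23 (adjusted p = 0.0055). Il10 was not called in a fit of the 4 arrays alone, without GM replicate 2 or without GM4 replicate 2, and Fst, the activin antagonist follistatin (-1.17 ± 0.28), lost its call in 6 alternatives, among them the RNA ratio and those without GM replicate 2 or either GM4 array. Over the alternatives Il10 ran from -1.66 to -0.78 and Fst from -1.94 to -0.54. Il1r2 was the third lower member. None of 17 NF-κB subunits and inhibitors passed, with a median of 0.12.

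**Figure D2:**
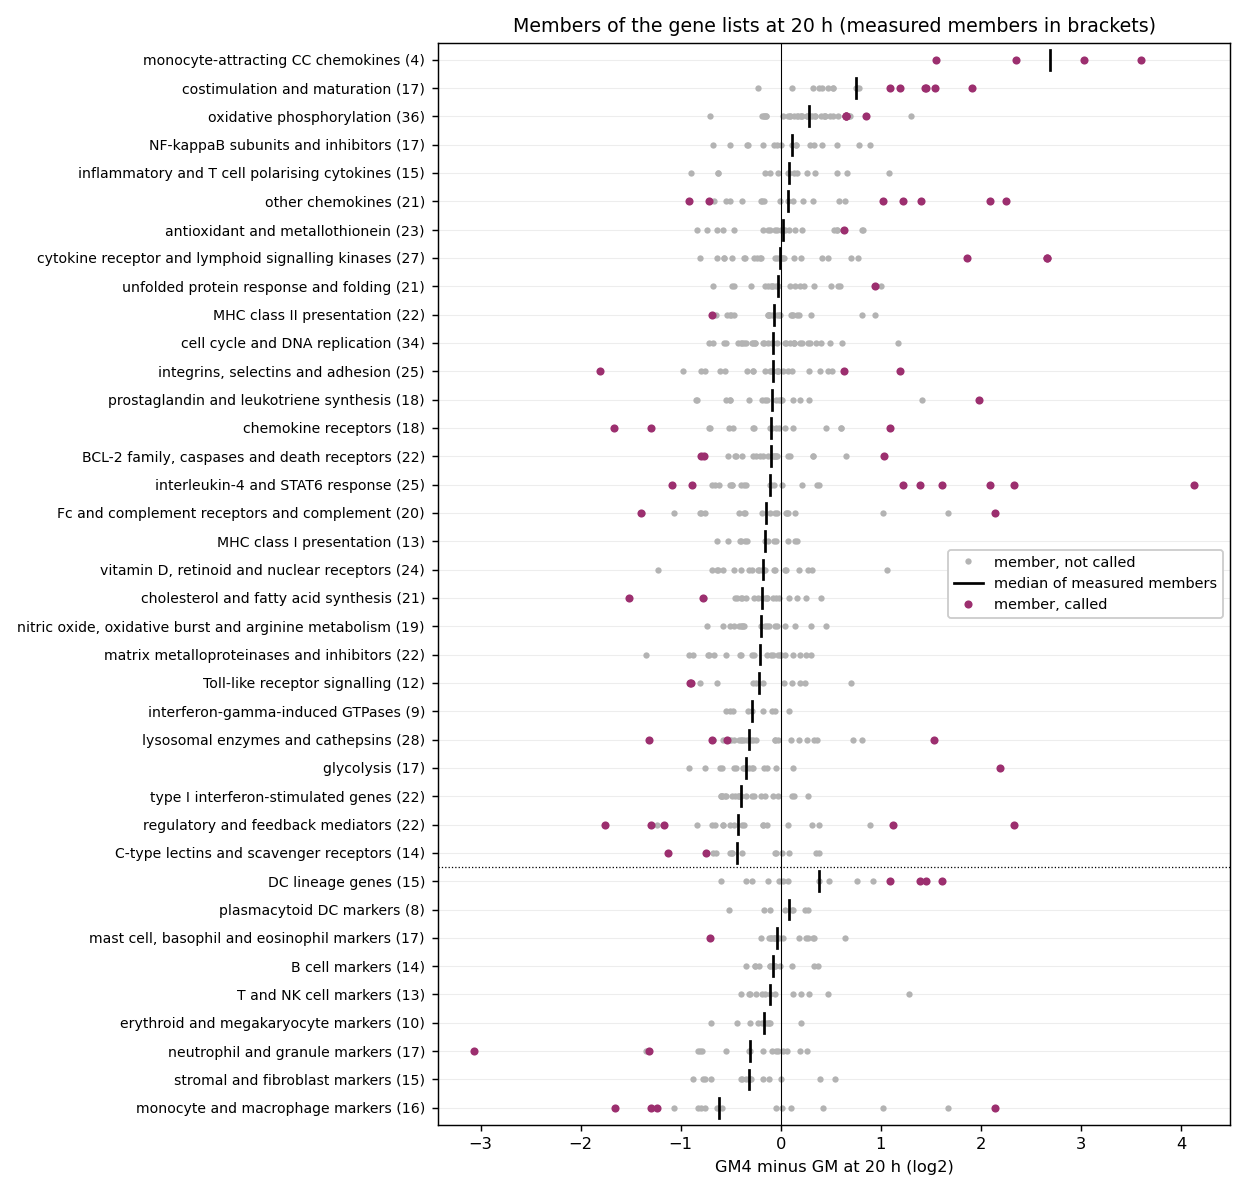
GM4 minus GM log2 difference at 20 h (horizontal axis) of every measured member of the 38 gene lists (rows), with called members in purple, others in grey and the list's median as a black bar, pathway lists above the dotted line and marker lists below it. Monocyte-attracting CC chemokines (median 2.69) and costimulation (0.76) lie farthest right among the pathway lists, and monocyte and macrophage markers (-0.62) farthest left.

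Interferon-stimulated genes were not called in either list, where 3.54% of all genes were higher and 1.87% lower. In lists this short that says little about the members. Of 22 measured type I interferon-stimulated genes 3 lay above 0, against 44.9% of all genes. The median was -0.40, and the lowest was -0.60. Ifit1, an antiviral RNA-binding protein, was at 3882 and 3989 in GM DC and 2668 and 2522 in GM4 DC, and Isg15, a ubiquitin-like protein, at 5926 and 6029.9 in GM DC and 4228 and 4259.9 in GM4 DC. Their GM4 arrays were below the GM arrays, but the adjusted p was 0.243 for Ifit1 and 0.328 for Isg15. Of 9 GTPases induced by interferon-γ 1 lay above 0, with a median of -0.29. Of genes of antigen presentation, none of 13 for MHC class I passed (median -0.16), and of 22 for MHC class II 1 was lower, against 1.87% of all genes, the invariant chain protease Ctss (-0.68 ± 0.17), with a median of -0.07. Ctss lost its call under quantile normalization, median centring, with the RNA ratio and whichever single 20 h array was left out (-0.75 to -0.31 over the alternatives). Among 19 genes of nitric oxide, oxidative burst and arginine metabolism none passed, with Nos2 at -0.41 and Arg1 at -0.40.

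The lists of uptake and pattern recognition held 5 lower genes and 1 higher, where 1.87% and 3.54% of all genes were lower and higher. Of 14 C-type lectins and scavenger receptors 2 were lower, the scavenger receptor Msr1 (-1.12 ± 0.21) and the endocytic receptor Lrp1 (-0.74 ± 0.18), and the median was -0.44. Of 12 Toll-like receptor genes 2 were lower, Ly86, a partner of the receptor Cd180 (-0.91 ± 0.16), and Tlr6, a lipopeptide receptor (-0.90 ± 0.22). Ly86 and Msr1 lost their calls with the RNA ratio (-0.89 and -0.98). Lrp1 and Tlr6 lost theirs whichever 20 h array was left out, Msr1 without any of them but GM replicate 1 and Fcer1g, described next, without any but GM4 replicate 1. The ranges were -1.20 to -0.81 for Msr1, -1.09 to -0.63 for Lrp1, -1.35 to -0.77 for Tlr6 and -1.83 to -0.93 for Fcer1g. Second probe sets of Msr1 (-0.50) and Fcer1g (-0.45, with signals below 16) were not called. Cd14, the LPS co-receptor, was at 7257 and 7525 in GM DC and 4722 and 4756 in GM4 DC and did not pass (-0.64 ± 0.21, adjusted p = 0.101). Among 20 Fc receptor and complement genes the signalling chain Fcer1g was lower (-1.40 ± 0.28, adjusted p = 0.0114) and C1qb, a chain of complement C1q, was higher (2.14 ± 0.56, adjusted p = 0.0421). C1qb was at 3.26 and 1.79 in GM DC and 73 and 58.6 in GM4 DC. A second C1qb probe set at 100.3 and 100.6 against 52.2 and 96.7 went the other way (-0.41, not called), so the direction for C1qb is uncertain. The call was lost in 10 of 26 alternatives, among them the RNA ratio, an offset of 64, averaged probe sets and the omission of any single 20 h array, with differences from 0.86 to 4.27. C1qa (1.67) and C1qc (1.02) did not pass, with adjusted p of 0.0551 and 0.0737.

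Lysosomal genes had 1 higher and 3 lower members of 28, against 3.54% and 1.87% of all genes, with a median of -0.32. The cathepsin Ctsh was at 3895 and 3677 in GM DC and 1612 and 1413 in GM4 DC, a difference of -1.32 ± 0.15 (adjusted p = 0.000412) kept in all alternatives. Both GM arrays were more than 2 times both GM4 arrays. Cst7, a cathepsin inhibitor, was higher (1.53 ± 0.36), and Lamp2, a lysosomal membrane protein, lower (-0.53 ± 0.14). In energy metabolism, 1 of 17 glycolysis genes was called, Hk1, while 15 of 17 lay below 0, with a median of -0.35, including Slc2a1 (-0.92) and Ldha (-0.32), neither called. Of 36 measured genes of oxidative phosphorylation 30 lay above 0, against 44.9% of all genes, and the median was 0.28. The 4 called were Cox5b (0.85 ± 0.17), Ndufb5 (0.66 ± 0.15), Uqcrq (0.65 ± 0.16) and Ndufv2 (0.65 ± 0.15), all subunits of the respiratory chain, and none of these calls held with the RNA ratio as a covariate. Those of Ndufb5, Uqcrq and Ndufv2 were also lost with median centring. Of 21 cholesterol and fatty acid genes Ch25h and the cholesterol exporter Abcg1 (-0.78 ± 0.15) were lower. Of 22 BCL-2, caspase and death receptor genes Bik was higher (1.03 ± 0.21) and the TNF receptors Tnfrsf1a (-0.80 ± 0.21) and Tnfrsf1b (-0.76 ± 0.20) lower. Among 25 adhesion genes Icam1 and Alcam (0.63 ± 0.17) were higher and Itgb5 lower. Single members of the unfolded protein (Dnajc3, 0.95 ± 0.20) and antioxidant (Sod1, 0.63 ± 0.15) lists were higher. Other Dnajc3 probe sets gave 0.83, 0.52 and, with signals below 16, -0.23. None of them was called, and averaging the Dnajc3 probe sets ended the call. Second probe sets of Lamp2 (-0.45), Tnfrsf1a (-0.36) and Ndufv2 (0.47) were not called either. None of 34 cell cycle genes and none of 22 matrix metalloproteinase genes passed. Of the 64 called members of all lists 21 kept the call in all alternatives, and among the called genes of lysosome, metabolism, death, adhesion, folding and antioxidant lists Ctsh and Hk1 alone did so. With the RNA ratio 28 of the 64 lost the call, including Cst7, Ctss, Abcg1, Bik, Tnfrsf1b, Alcam, Dnajc3 and Sod1. Each of these 8 was also lost without GM4 replicate 1, as were Lamp2 and Tnfrsf1a. In all, Alcam lost its call in 17 of 26 alternatives, Tnfrsf1a in 14 and Lamp2 in 11.

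Markers of other cell types were measured beside these results. Of 16 monocyte and macrophage markers 3 were lower and 1 higher, against 1.87% and 3.54% of all genes, with a median of -0.62, and their summed signal was 22990.0 and 21305 in GM DC against 12757 and 13117 in GM4 DC. The lower ones were Lyz2, Csf1r, the receptor of macrophage growth factor (-1.23 ± 0.25), and Ccr2, and the higher one was C1qb, whose direction is uncertain as given above. A second, dimmer Csf1r probe set gave -0.33 and was not called. Csf1r lost its call whichever 20 h array was left out and with averaged probe sets (-1.91 to -0.78). No defining marker of this list was below 16 on all 4 arrays, and its part in the lower uptake, lysosomal and Fc receptor genes was not tested. Among neutrophil and granule markers Ngp and Chil1 (-1.32 ± 0.33) were lower, 2 of 17 against 1.87% of all genes, with a median of -0.31. Chil1 lost its call whichever 20 h array was left out and without the intensity trend (-1.89 to -1.06). Their signals summed to 5750.3 and 6840.2 in GM DC against 4682 and 4462 in GM4 DC. S100a8, an abundant neutrophil protein, was at 634 and 820.5 in GM DC and 890.1 and 848 in GM4 DC. Both GM4 arrays thus lay above both GM arrays, but S100a8 was not called. Lcn2 (-0.18), Camp (-0.80) and Ltf (-0.79) did not pass either. The granule protease genes Mpo and Ctsg were below 16 on all 4 arrays, and the part of neutrophils in the Ngp difference was not tested. Of 17 mast cell, basophil and eosinophil markers 1 was lower, Prg3 (-0.71 ± 0.17), at signals of 19.1 and 15.5 in GM DC and 3.47 and 5.16 in GM4 DC, and 8 were below 16 on all 4 arrays. Prg3 lost its call whichever 20 h array was left out, with the RNA ratio and in a fit of the 4 arrays alone (-1.80 to -0.25). No marker of B cells (14 measured), T and NK cells (13), plasmacytoid DC (8), erythroid cells (10) or stromal cells (15) was called. The T cell receptor chain genes Cd3d and Cd3g were below 16 on all 4 arrays. Stromal markers had a median of -0.32, which was 0.44 with the RNA ratio as a covariate.

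Setting 20 h beside the earlier times showed fewer called genes late. At 0 h 1337 genes (16.2%) and at 6 h 1072 genes (13.0%) were called between the DC types, with 3 against 3 and 3 against 2 arrays. The median standard error was 0.23 at 20 h, 0.19 at 0 h and 0.21 at 6 h, so the counts are of tests of unequal precision. Of the 446 genes called at 20 h, 224 were also called in the same direction at 0 h (50.2% of the 20 h genes and 16.8% of the 0 h genes) and 238 at 6 h (53.4% and 22.2%). At all 3 times 113 genes were higher and 50 lower. Across genes the difference at 20 h correlated with that at 0 h at 0.493 and with that at 6 h at 0.539, a description over 8251 genes that are not independent. The times share no arrays. The source names of the GM4 samples titled 0 h speak of exposure to LPS and interferon-γ, and those titles were followed here. Chil3 was among the genes higher at every time (3.46 before stimulation and 3.18 at 6 h), as were Vdr, Dgka, Fyn, Socs2, Adam19 and Batf3, and Lyz2 was lower at every time (-1.68 and -2.68).

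**Figure D3:**
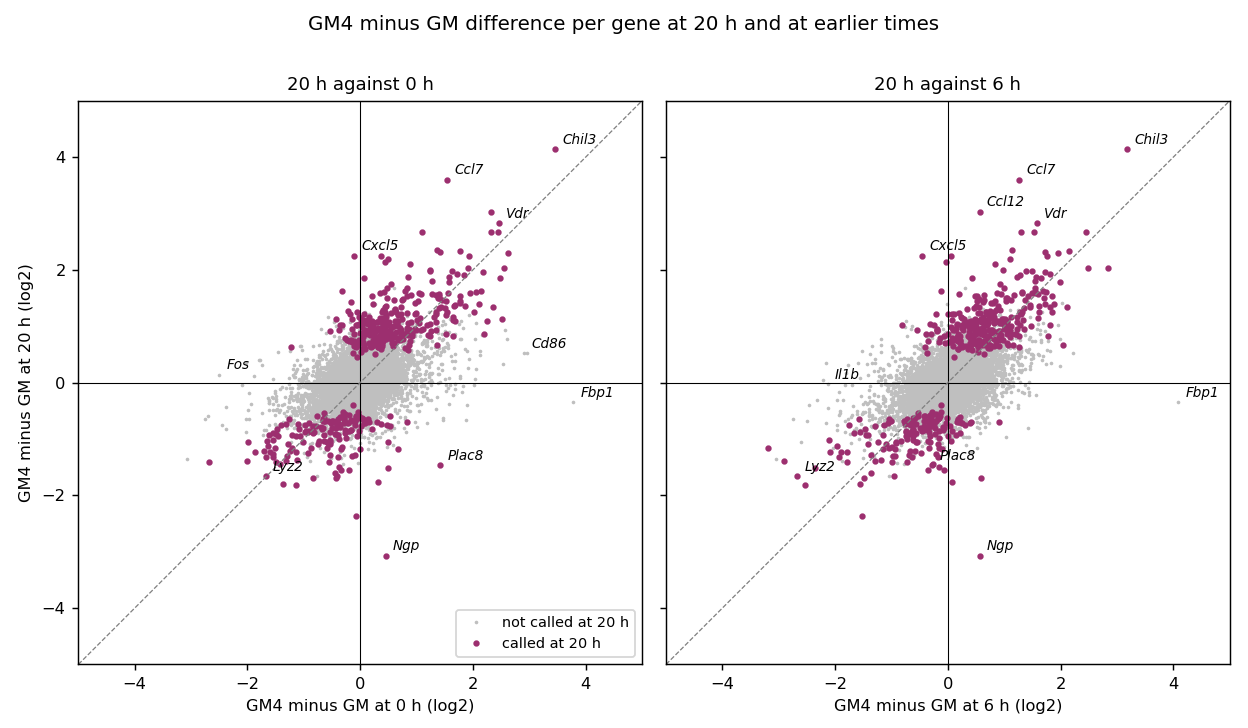
GM4 minus GM log2 difference of 8251 genes at 20 h (vertical axes) against 0 h (left) and 6 h (right), with the 446 genes called at 20 h in purple, others in grey and the line of equal difference dashed. Chil3 lies near the line at both times, Ngp is negative at 20 h alone, and Fbp1, Cd86 and Fos lie along the horizontal axis, with differences at 0 h of 3.78, 2.91 and -2.50.

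The change of the difference itself was called for 123 genes between 0 h and 20 h (1.49%) and for 65 between 6 h and 20 h (0.788%). In 84 of the 123 and 46 of the 65 the difference was smaller at 20 h. Cd86 ranged over 76.9 to 105 in 3 GM arrays and 646 to 972 in 3 GM4 arrays at 0 h, without overlap, before the overlapping values at 20 h given above. It rose by 2.81 ± 0.27 from 0 to 20 h in GM DC (adjusted p = 2.83e-06). In GM4 DC the difference between these times was 0.42 ± 0.27 (adjusted p = 0.318). Tnfrsf9, the costimulatory receptor 4-1BB, ranged over 33 to 105 in GM and 497 to 578 in GM4 DC at 0 h and was at 362 and 297 in GM DC and 568 and 401 in GM4 DC at 20 h. Cd40 differed by 1.17, -0.39 and 0.32 at the successive times and rose over the 20 h in both types, by 2.96 ± 0.13 in GM and 2.11 ± 0.13 in GM4 DC. Of 17 costimulatory genes 15 were called higher at 0 h, 8 at 6 h and 6 at 20 h, with medians of 1.52, 0.80 and 0.76. Calls among all genes fell as well, in tests of unequal precision. They were 16.2% at 0 h and 13.0% at 6 h in either direction, and 3.54% higher and 1.87% lower at 20 h. The costimulatory counts are of higher calls alone, so the shares at 0 h and 6 h are not a like measure for them. Fbp1, an enzyme of gluconeogenesis, fell in GM4 DC from 218 to 739 at 0 h and 236 to 626 at 6 h to below 16 on both arrays at 20 h (-4.37 ± 0.46, adjusted p = 1.35e-05), while GM DC had signals of 17.3 or lower on all arrays. Differences closer to 0 at 20 h were also seen for the C-type lectin Clec4d, with -2.75, -2.75 and -0.65 at the successive times, and for Fos, an immediate early gene, with -2.50, -1.14 and 0.14. Il1b, at -2.13 at 6 h, and the lectin Clec4e, at -2.17, were at -0.03 and 0.35 at 20 h.

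Other genes separated late. Of 140 genes called at 20 h and at no earlier time, 21 also differed from 0 h in the test of the change and 11 from both earlier times, 7 higher and 4 lower. Cxcl5 was at 12.2 to 22.4 at 0 h and 51.7 to 63.3 at 6 h in GM4 DC and rose to 125 and 292 at 20 h, while in GM DC it was at 75.6 to 90.3 at 6 h and 25.5 and 30.3 at 20 h. Tg was below 16 on every array at 0 and 6 h. Ngp fell in both types, by -2.19 ± 0.29 in GM DC and by -5.72 ± 0.29 in GM4 DC (0 h to 20 h, both called). At 0 h it was at 1322 to 1546 in GM and 1444 to 2794 in GM4 DC. Il1r2 rose in GM DC (1.16 ± 0.24, adjusted p = 0.00221) and fell in GM4 DC (-0.91 ± 0.24, adjusted p = 0.016). Il13ra1 rose in both, by 2.11 ± 0.15 in GM and 0.89 ± 0.15 in GM4 DC, and Ctsh by 1.34 ± 0.14 and 0.42 ± 0.14. Plac8 was higher in GM4 DC at 0 h (1.41) and lower at 20 h. It rose by 3.64 ± 0.33 from 0 to 20 h in GM DC, and the difference between these times in GM4 DC was 0.76 ± 0.33 and not called. It was 1 of 8 genes called in opposite directions at 0 h and 20 h. Cxcl1, at -0.81 at 6 h, was 1 of 2 called in opposite directions at 6 h and 20 h.

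Signals of the monocyte chemokines over time are given without a test between genes. Ccl12 was at 4.34 to 9.78 in GM DC at 0 h and at 117 to 153 at 6 h, overlapping the 147 to 335 of GM4 DC, and stood at 7.6 to 7.74 at 20 h, against 154 to 203 in GM4 DC. Its difference at 20 h exceeded that at 6 h by 2.47 ± 0.50 (adjusted p = 0.0426), a call lost in 13 of 25 alternatives (1.30 to 3.75). Ccl8 differed by 1.36, 1.14 and 2.35 at the successive times. Ccl7 was at 63.8 to 161, 107 to 334 and 58.7 to 58.8 in GM DC at 0, 6 and 20 h and at 195 to 509, 243 to 818 and 856 to 925 in GM4 DC. The groups overlapped at 6 h and not at 0 or 20 h, but the change of its difference did not pass (2.06 ± 0.72 from 0 h, adjusted p = 0.225). Ccl2 rose in both types from 0 to 20 h, by 1.27 ± 0.31 in GM DC and 1.93 ± 0.31 in GM4 DC. Vnn3 was at 3.78 to 4.96 in GM DC at 0 h and 35.3 to 76.2 at 6 h, rose by 2.62 ± 0.24 from 0 to 20 h, and was below 16 on all GM4 arrays. Il10 was below 16 on every 0 h array and rose by 20 h in both types, by 2.52 ± 0.21 in GM and 1.32 ± 0.21 in GM4 DC, with 6 h signals of 77.6 to 98.3 and 37.7 to 58.5.

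**Figure D4:**
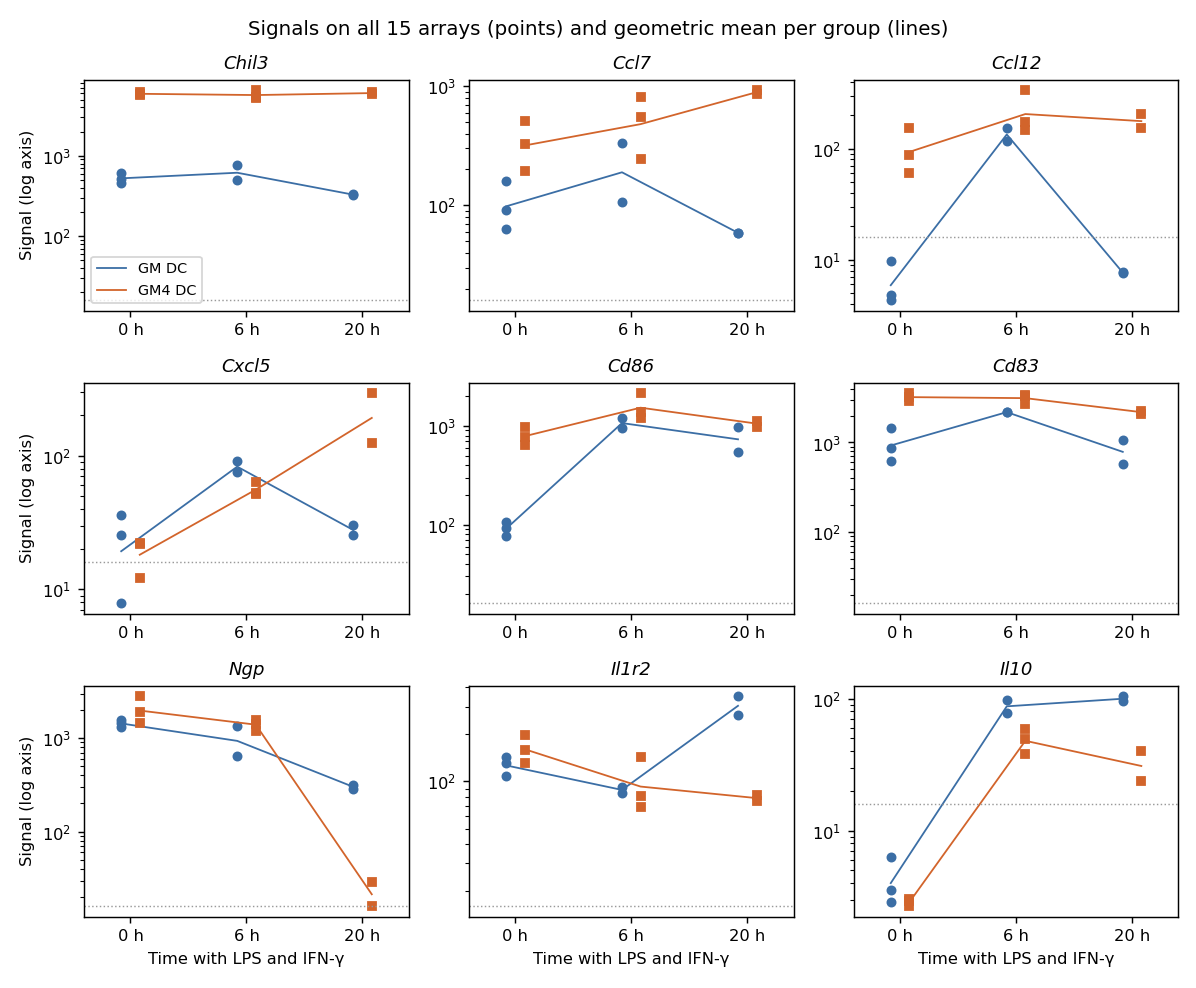
Signals of 9 genes (log axes) on all 15 arrays at 0, 6 and 20 h, with 1 circle per GM array, 1 square per GM4 array, lines through the geometric means of each group and a dotted line at 16. The Chil3 gap is present at all times, the Cd86 gap is widest at 0 h, and the gaps of Cxcl5, Ngp and Il1r2 are seen at 20 h.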

How the data were processed

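Biotin-labelled RNA of 15 samples was read on as many arrays, per the labels. The authors deposited linear intensity for each probe set, which per the submitters' processing notes came from MAS5, with a version and scaling target that are not given in the sources used here. MAS5 handles each array alone, so low intensity is noisy and a global shift in RNA would not be seen. The 66 control probe sets of 12488 were dropped, and the other 12422 all entered the test. The platform annotation gave 1 symbol for 10833 of them, several for 396 and none for 1193.

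In R 4.3.3 with limma 3.58.1, log2(intensity + 16) was fitted with 6 group means over all 15 arrays, giving 9 residual degrees of freedom, a prior of 4.76 and an intensity trend. The fit was tested on simulated data. A call needed a Benjamini-Hochberg adjusted p-value under 0.05. The rule named the 15 largest increases and 15 largest decreases among called genes whose arrays did not overlap, the 6 largest changes of the difference each way against 0 h and against 6 h, and members of 38 lists (814 genes, 648 measured), leaving out expressed sequences and unnamed transcripts. Members and lists were chosen with earlier results of these data known.

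The analysis was repeated with an offset of 1 or 64, after quantile normalization or median centring, with probe sets above the 40th percentile only, without the trend, with array weights, with a replicate block, on the 4 arrays alone, with the RNA ratio as covariate, with a gene's probe sets averaged, and with each array left out. Leaving out a 20 h array leaves 1 array in a group, which is assumed to vary like the others. Promoters came from RefSeq, and 6572 of 8251 genes had a window.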

Additional observations from a re-analysis of the deposited data

Results flagged for a closer look

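For these genes the GM4 minus GM difference at 20 h itself differed from that at an earlier time in limma's interaction contrast (adjusted p under 0.05), and the values are the difference at 20 h minus the earlier one on the log2 scale. Against 0 h the difference had moved up for Fos by 2.64, Cxcl5 by 2.36, Rgs2 by 2.19, Cd93 by 2.10, Clec4d by 2.10 and Ccl3 by 2.07. It had moved down against 0 h for Fbp1 (-4.13), Ngp (-3.52), Plac8 (-2.88), Ccl5 (-2.55), Tnfrsf9 (-2.44) and Cd86 (-2.39). Against 6 h it had moved up for Cxcl5 by 2.71, Clec4e by 2.51, Ccl12 by 2.47, Tg by 2.19, Il1b by 2.10 and Clec4d by 2.10. It had moved down against 6 h for Fbp1 (-4.44), Ngp (-3.64), Lsr (-2.29), Il1r2 (-1.83), Smarca2 (-1.70) and Cd82 (-1.65).

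Of the 12 changes against 0 h, 2 kept their call in every alternative, those of Rgs2 and Ngp, and of the 12 against 6 h, 1 did, that of Ngp. Without GM4 20 h replicate 2, 10 of each 12 lost the call. Rgs2, a regulator of G protein signalling, ranged from 514 to 673 in GM DC and 147 to 174 in GM4 DC at 0 h to 36.3 to 42.3 and 52.4 to 61.3 at 20 h. Ngp lay between -4.21 and -2.53 over the alternatives against 0 h and between -4.33 and -2.63 against 6 h. Smarca2 and Cd82, which were not called at 20 h (-0.46 and -0.22), were higher in GM4 DC at 6 h (1.24 and 1.43), and Ccl5 was higher at 0 h (1.88).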

How the results depend on the processing

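With 2 arrays a group the number of arrays limits the precision, and signals below 16 are the least certain. The called named genes gave 1997 pairs of gene and alternative, of which 1705 kept the call and 292 lost it. Their direction held in all pairs, which in many of the alternatives was fixed in advance. Where arrays do not overlap, neither an omitted array nor another offset can reverse it. Fits that change only the trend or the filter leave the difference as it was. The 584 called probe sets became 335 with the RNA quality covariate and 146 to 650 when 1 array was left out. A fit of only the 4 arrays called 535, of which 56.1% were higher against 66.8% in the fit of all arrays. For the change from 0 h, 157 probe sets were called, 304 with array weights, 260 with the replicate block and 15 to 168 without 1 array, the fewest without GM4 20 h replicate 2. For the change from 6 h, 83 were called, 46 with quantile normalization, 55 with median centring, 125 with the filter, 125 with the RNA quality covariate and 8 to 113 without 1 array, the fewest without replicate 2 of either type at 20 h. The cause was not tested, beyond the fewer arrays or probe sets of some fits. Same-numbered arrays of the groups correlated in their deviations from the group means at 0.0026 to 0.332 (17 of 33 pairs over 0.1). All 33 values were positive, and at 20 h same-numbered arrays correlated at 0.297. The labels do not say whether equal numbers share a preparation, and the main fit did not pair samples by number. Whether they are pairs was not tested beyond the fit with a replicate block. The replicate block called 766 probe sets at 20 h, 573 of them among the 584, and 124 for the change from 6 h. The medians of 11 lists, all within 0.32 of 0, changed sign in some alternative, none of them under the other normalizations or offsets.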
